A study of Mus musculus with 8 samples.

Results

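The ephrin-B ligands Efnb1, Efnb2 and Efnb3, the receptors Ephb1, Ephb2, Ephb3, Ephb4 and Ephb6, and the receptor Epha4 were examined in RNA sequencing of the mouse auditory nerve. All 9 genes were in the table of 15035 genes, and all 9 passed the filter on low values with 14870 genes tested. The family was chosen by name around Efnb3, which was picked for its fall in the heterozygote against wild-type comparison. The genotype values of Efnb3 are therefore given as a description, with no test. The other 8 genes were taken as its relatives, with earlier results of these data known.

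The 8 libraries came from auditory nerves dissected at postnatal day 21, with both cochleas of a mouse in 1 library. Wild-type mice gave libraries 1 to 4. Mice labelled heterozygous for Mef2c, a MADS-box transcription factor, gave libraries 5 to 8. The labels state neither the strain and design of the mutant allele nor the sex of the mice, and no other allele or treatment is named. Reads counted over the genes of the table were estimated at 13363354 to 21507209 per library. This estimate rests on a step per read inferred from the values, so it is not exact and is not the full sequencing depth. Values are normalized counts, which are read counts divided by a size factor for each library. Mef2c itself had 402.2 to 508.7 normalized counts in wild type and 583.3 to 735.1 in the libraries labelled heterozygote, and was higher there. As the allele is not described, whether this bears on the labels was not tested. Directions below are between libraries as labelled. Wild-type library 1 stood apart with the largest share of the ribosomal RNA precursor Rn45s (4.28%, against 1.60% to 2.91% elsewhere). It and library 5 were low in Xist, with 12.0 and 7.6 normalized counts against 5175.3 to 8615.3 elsewhere. The neuron marker list summed to 196748.1 to 270669.5 normalized counts and the myelinating Schwann cell list to 103374.2 to 145386.6, so both defining cell types of the nerve were present in every library.

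Ephrins and Eph receptors signal between touching cells. An ephrin-B ligand spans the membrane, binds Eph receptor tyrosine kinases on the neighbouring cell (forward signalling), and passes a signal into its own cell through its cytoplasmic tail (reverse signalling). EphB receptors bind ephrin-Bs, whereas EphA4 binds ligands of both classes. In the developing cochlea, EphA4 and ephrin-B2 guide the bundling of spiral ganglion axons, and in central myelin ephrin-B3 is known as an inhibitor of axon growth.

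The 3 ligands are paralogs that end in a closely related tail, the part that binds PDZ-domain proteins, so the ends of their coding sequences are shown to see whether reads can be told apart. Each is the last 60 bases of the coding sequence with its stop codon, 5′ to 3′ on the coding strand, from the GENCODE M21 transcript on GRCm38. Capitals mark bases that are the same in all 3 genes. All 3 stretches lie in coding exon 5, at chrX:99147468-99147527 (plus strand) for Efnb1, chr8:8620588-8620647 (minus strand) for Efnb2 and chr11:69555860-69555919 (minus strand) for Efnb3.
Efnb1: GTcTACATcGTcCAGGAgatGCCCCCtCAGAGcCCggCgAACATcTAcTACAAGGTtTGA
Efnb2: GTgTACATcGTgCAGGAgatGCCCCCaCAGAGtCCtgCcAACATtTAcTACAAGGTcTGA
Efnb3: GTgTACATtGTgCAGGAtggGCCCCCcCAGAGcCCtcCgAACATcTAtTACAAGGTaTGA

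Over these 60 bases, 46 were identical in all 3 genes. Efnb3 matched Efnb1 at 49 and Efnb2 at 49, and Efnb1 matched Efnb2 at 52. Across the whole coding sequences (1038, 1011 and 1023 bases for Efnb1, Efnb2 and Efnb3) the longest run shared by any pair was 22 bases, between Efnb1 and Efnb3, and no stretch of 50 bases was shared. Exons of Efnb3 (chr11:69554092-69560205, minus strand) overlapped those of no other annotated gene. Exons of Ephb1 (chr9:101922128-102354693, minus strand) overlapped the opposite-strand gene Gm26846 by 152 bases, and those of Ephb4 (chr5:137350109-137378669, plus strand) overlapped Zan by 33 bases. Neither neighbour was analysed here, and whether the counting used the strand is not given in the sources used here.

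Efnb3 had 1122.6, 1268.8, 1034.0 and 1228.4 normalized counts in wild-type libraries 1 to 4. It had 447.5, 554.1, 661.6 and 615.1 in the libraries labelled heterozygote, 5 to 8. Every wild-type library lay above every library labelled heterozygote. The means were 1163.4 ± 106.1 and 569.6 ± 92.5 (SD, n = 4 each), a ratio of 0.49. On the log2(value + 1) scale, used for all fold changes here, the difference was -1.04 ± 0.13 (standard error). Of all tested genes, 1.0% had a lower value. These are the values for which the gene was picked.

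Efnb1 and Efnb2, the other ligands, were measured in the same libraries. Efnb2, the ligand that marks arteries in vessels and is found on spiral ganglion axons, had 1610.5, 2097.6, 2254.0 and 1842.0 normalized counts in wild-type libraries 1 to 4. It had 2318.0, 1863.7, 2181.6 and 2421.8 in libraries 5 to 8. The genotypes overlapped, and the lowest of all 8 values was that of wild-type library 1. The log2 fold change was 0.18 (95% interval -0.09 to 0.44, limma-trend adjusted p 0.519). It was 0.09 without wild-type library 1, 0.08 with a correction for transcript length and 0.06 without the 2 libraries low in Xist. Efnb1, an X-linked gene whose loss disturbs skull and face development, had 853.9, 667.9, 721.4 and 602.7 normalized counts in wild type and 649.6, 1003.7, 854.7 and 794.1 in libraries 5 to 8. Its genotypes overlapped as well, with a log2 fold change of 0.21 (95% interval -0.12 to 0.54, limma-trend adjusted p 0.531). Without the 2 libraries low in Xist the Efnb1 value was 0.41, and without library 6 it was 0.11. Neither Efnb1 nor Efnb2 passed the test.

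**Figure D1:**
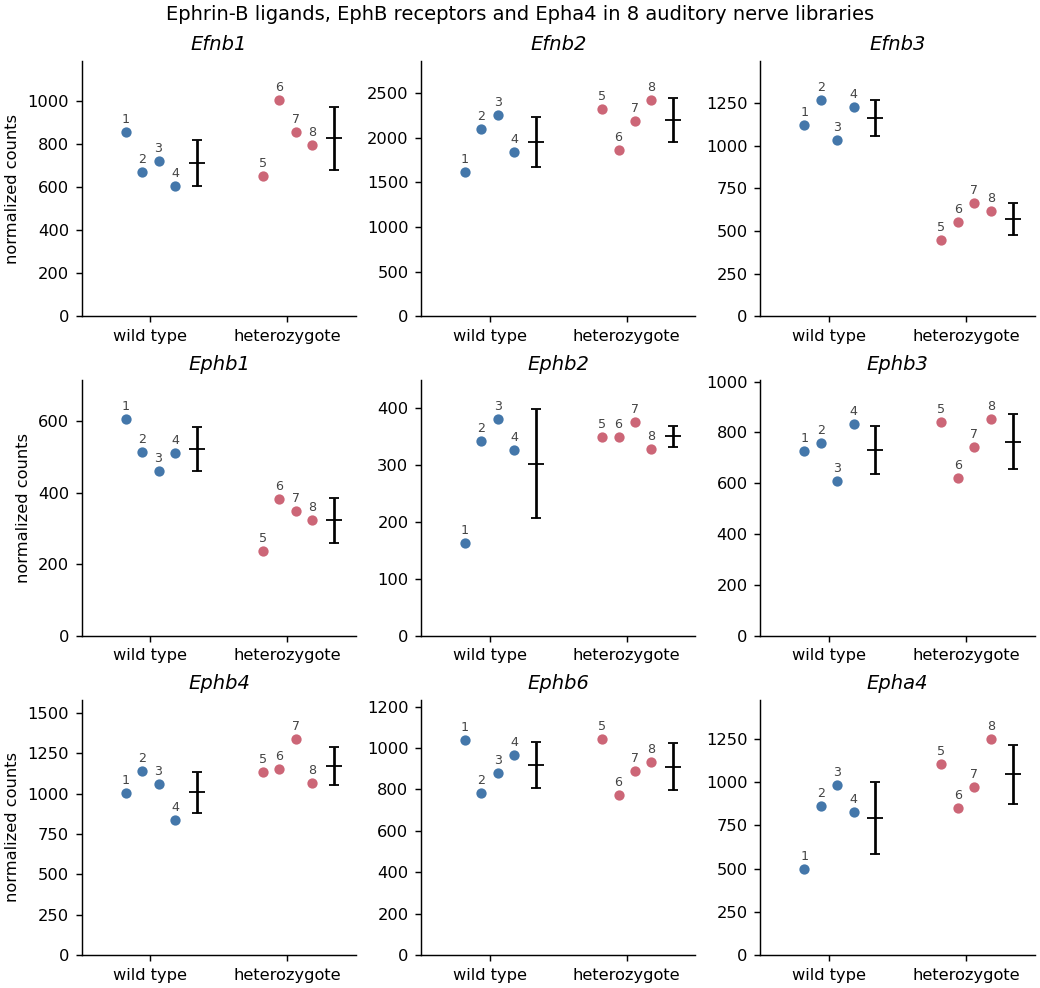
Normalized counts (y axis, from 0) of the 9 genes in each library, wild type in blue and labelled heterozygote in red, with the library number above each point and the mean and SD of 4 libraries in black. The genotypes are separate in Efnb3 and Ephb1, and overlap in the other 7 panels, where wild-type library 1 is the lowest for Efnb2, Ephb2 and Epha4.

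Ephb1 was the receptor with the largest difference. EphB1 is known for steering the uncrossed axons of the retina at the optic chiasm. It had 604.8, 513.4, 459.2 and 509.7 normalized counts in wild-type libraries 1 to 4. In libraries 5 to 8 it had 235.7, 382.5, 348.7 and 324.4. All 4 wild-type libraries lay above all 4 labelled heterozygote, with library 5 the lowest. Means were 521.8 ± 60.6 and 322.8 ± 62.8 (SD, n = 4 each), a ratio of 0.61. The log2 fold change was -0.71 ± 0.17 (standard error), with a 95% interval of -1.07 to -0.34. In the limma-trend fit its p was 0.00117 unadjusted and 0.183 after Benjamini-Hochberg adjustment over all tested genes, so Ephb1 did not pass 0.05. An exact permutation test (two-sided) gave 0.0286 unadjusted, the lower limit for a design of this size. Any gene without overlap between genotypes (7.26% of all tested genes) reaches that limit. The permutation value thus adds nothing to the separation given above. In the authors' deposited table Ephb1 had a ratio of 0.620 and an FDR of 0.0140, which is under 0.05. The authors' FDR was under 0.05 for 242 genes, whereas 12 genes passed in the limma-trend fit. The call for Ephb1 differed between the limma-trend fit and the authors' table, and the ratios were close.

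Epha4, the EphA receptor that also binds ephrin-Bs, had a positive fold change. It had 498.3, 861.9, 980.8 and 826.2 normalized counts in wild type and 1105.8, 852.1, 970.7 and 1250.8 in libraries 5 to 8. The genotypes overlapped, and wild-type library 1 was far below the rest. The log2 fold change was 0.43 ± 0.20 (standard error), with limma-trend p of 0.0485 before and 0.354 after adjustment. Without wild-type library 1 the log2 fold change was 0.22, and with a correction for transcript length it was 0.27. In the authors' deposited table the ratio was 1.32 with an FDR of 0.320.

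The other 4 receptors did not pass either. Ephb2, which shares axon guidance roles with EphB3, had 162.2, 342.2, 380.4 and 326.1 normalized counts in wild type and 348.7, 349.4, 375.1 and 329.1 in libraries 5 to 8. Only wild-type library 1 stood away from this narrow band, and the log2 fold change of 0.28 became 0.01 without it, or with the length correction. In that library values fell off with transcript length, by a log2 slope of -0.21 per doubling of length. The slope was -0.0286, 0.0667 and -0.0976 in wild-type libraries 2 to 4, and 0.0346, 0.052, 0.0351 and 0.148 in libraries 5 to 8. All libraries labelled heterozygote had positive slopes, so length and genotype cannot be fully told apart. Ephb2 and Epha4 have the longest transcripts of the family (10902 and 6328 bases). Beyond that correction, the part of length in their differences was not tested. Ephb4, the receptor that marks veins and pairs with ephrin-B2, had a log2 fold change of 0.22 (95% interval -0.04 to 0.48, limma-trend adjusted p 0.406) and ranged from 837.0 to 1339.1 normalized counts over the 8 libraries. Without wild-type library 4, its lowest, the value was 0.13. Ephb3 had 0.06 (95% interval -0.24 to 0.36), and Ephb6, whose kinase domain is catalytically inactive, had -0.01 (95% interval -0.28 to 0.26). The direction of both Ephb3 and Ephb6 turned when single libraries were left out, and that of Ephb3 also with a correction for transcript length.

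Of the 8 genes other than Efnb3, 0 passed a limma-trend adjusted p of 0.05, a call made for 0.0807% of all tested genes. At an unadjusted p under 0.05 there were 2 (Ephb1 lower, Epha4 higher), and 14.1% of all tested genes were under it. In 1 of the 8, Ephb1, the genotypes did not overlap, which held for 7.26% of all tested genes. The median log2 fold change of the 8 was 0.19, beside 0.0154 over all tested genes, with 6 positive and 2 negative, where 52.3% of all tested genes were positive. Counts over 8 genes are too small to set them apart from these shares.

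**Figure D2:**
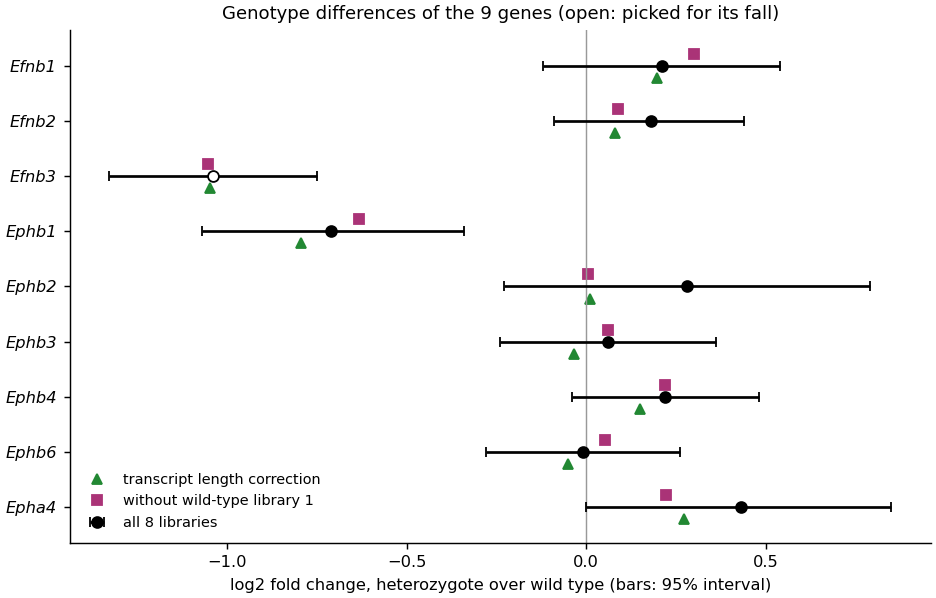
Log2 fold change of labelled heterozygote over wild type (x axis) for the 9 genes, with 95% limma-trend intervals (circles; open for Efnb3), and the values with a transcript length correction (triangles) or without wild-type library 1 (squares). Efnb3 and Ephb1 stay between -1.06 and -0.63 under these settings, and Ephb2 moves from 0.28 to 0.01.

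As a description, since Ephb1 was singled out for its difference, its level was also set against each other receptor within a library. The log2 ratio of Ephb1 to Epha4 was -0.56 ± 0.59 in wild type and -1.70 ± 0.48 (SD, n = 4 each) in the libraries labelled heterozygote. The ratio to Ephb6 was -0.81 ± 0.15 and -1.51 ± 0.47 (SD, n = 4 each). Against Ephb2, Ephb3 and Ephb4 the differences between genotypes were -0.99, -0.77 and -0.93 on the same log2 scale. These values share 1 numerator, and wild-type library 1 held both the highest Ephb1 and the lowest Ephb2 and Epha4. Without that library the log2 fold changes of Ephb1, Ephb2 and Epha4 were -0.63, 0.01 and 0.22.

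Levels were set side by side after division by transcript length, for which the longest GENCODE transcript was used (3183 bases for Efnb3, 10902 for Ephb2). Whether these are the transcripts expressed in the nerve was not tested, so the order and the shares below depend on that choice. In wild type, Efnb2 was the most abundant at 407.1 ± 59.1 normalized counts per kilobase (SD, n = 4), followed by Efnb3 at 365.5 ± 33.3. The libraries of these 2 ligands overlapped. Ephb6 (243.7 ± 29.6), Ephb4 (232.3 ± 29.3) and Efnb1 (218.4 ± 32.7) came next per kilobase, each overlapping its neighbour, and all lay below Efnb3. Ephb3 (154.1 ± 19.9) lay below Efnb1 without overlap. Epha4 (125.1 ± 32.6) overlapped Ephb3 above it and Ephb1 (111.8 ± 13.0) below it. Ephb2 was the lowest at 27.8 ± 8.84 and overlapped none. In the libraries labelled heterozygote Efnb3 took the fifth place in this order, at 178.9 ± 29.1 per kilobase (SD, n = 4), below Efnb2, Ephb4, Efnb1 and Ephb6. Its range of 140.6 to 207.9 overlapped those of Efnb1, Ephb6, Epha4 and Ephb3, so this place is not set apart. Ephb1, at 69.2 ± 13.5, kept the eighth place.

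**Figure D3:**
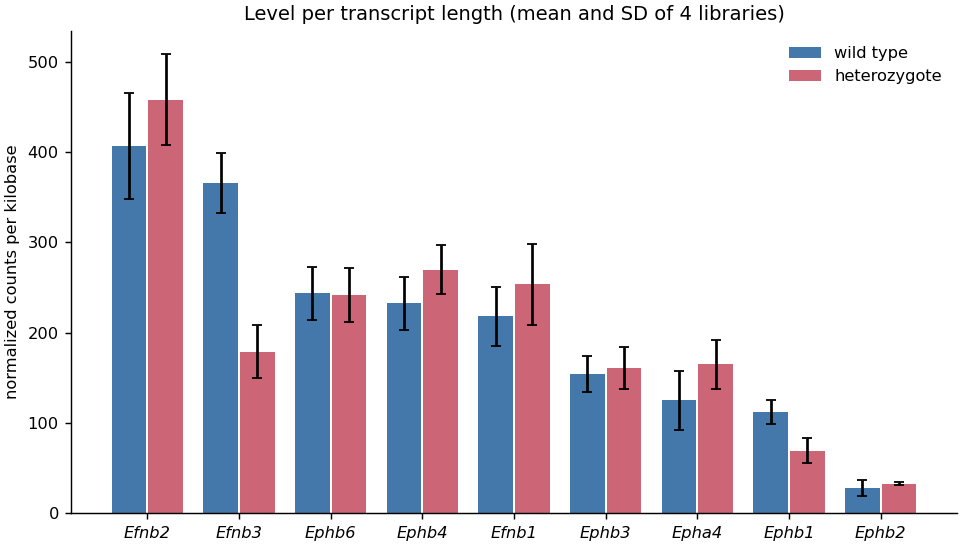
Level per transcript length (y axis, normalized counts per kilobase) of the 9 genes, ordered by their wild-type mean, as bars with the SD of 4 libraries (wild type blue, labelled heterozygote red). Efnb3 goes from 365.5 to 178.9 and leaves the second place, and Ephb1 goes from 111.8 to 69.2.

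The makeup of the ligand pool followed from these levels. Efnb3 made up 37.1%, 38.3%, 32.0% and 40.4% of the summed ephrin-B level per kilobase in wild-type libraries 1 to 4, and 17.1%, 20.0%, 22.5% and 20.5% in libraries 5 to 8. The share of Efnb2 was 41.0% ± 4.52 and 51.5% ± 6.03 (SD, n = 4 each), with overlap between genotypes. The 3 ligands together summed to 950.8 to 1041.3 normalized counts per kilobase in wild type and 823.6 to 942.3 in the libraries labelled heterozygote, and did not overlap. The 6 receptors summed to 883.8 to 907.5 and 849.2 to 973.6, which overlapped. Ephb1 made up 12.5% ± 1.54 of the receptor level in wild type and 7.44% ± 1.84 otherwise (SD, n = 4 each). The ligand shares contain the values for which Efnb3 was picked and are a description.

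Markers of oligodendrocytes and astrocytes, the glia of the central segment of the nerve, had summed levels that did not overlap between genotypes, lower in libraries 5 to 8. All 11 genes of the oligodendrocyte list were tested, 3 passed a limma-trend adjusted p of 0.05 (Mog, Mobp and Klk6, all lower), and in 10 of the 11 the genotypes did not overlap. Over all tested genes, 0.0807% passed and 7.26% did not overlap. The calls of Mog, Mobp and Klk6 are not robust to single libraries, since no gene of the whole table passed without library 2, 4 or 8. The median log2 fold change of that list was -1.29, and its summed level was 19188.7 to 24696.9 normalized counts in wild type and 5111.3 to 11148.0 in the libraries labelled heterozygote. None of its genes was at 0 in any library; Opalin was the lowest, at 11.6 ± 8.33 and 12.5 ± 10.3 normalized counts (SD, n = 4 each). Of the 5 astrocyte genes 0 passed with limma-trend, and 4 were lower at an unadjusted p under 0.05, beside 7.34% of all tested genes. The median log2 fold change of the astrocyte list was -0.47, and its sum was 18426.5 to 27820.9 in wild type and 9067.6 to 16286.5 otherwise. None of the 9 myelinating Schwann cell genes and none of the 10 neuron genes had an unadjusted limma-trend p under 0.05, with medians of -0.05 and 0.02. Of the other 10 lists, those of endothelium and of satellite and non-myelinating glia had lower sums without overlap (medians of -0.01 and -0.06), and that of cochlear supporting epithelium a higher one (0.26). Neither lower sum was shared by all genes of its list. In the satellite list Fabp7 had -1.20 and Cdh19 -0.20, but Ngfr had 0.08 and Scn7a 0.40. In the endothelial list 5 genes were lower and 4 higher. The sums of the remaining 7 lists overlapped, with medians from -0.11 for macrophages to 0.50 for osteoblasts and 3.67 for neutrophils. In the neutrophil list 3 of 4 genes did not overlap, all higher, among them S100a8 at 26.2 ± 20.2 and 572.9 ± 497.9 normalized counts (SD, n = 4 each, limma-trend adjusted p 0.0763). In bulk tissue, fewer cells of a type and less RNA per cell cannot be told apart.

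Both Efnb3 and Ephb1 were set against these glial sums in each library. Per 100 normalized counts of the oligodendrocyte list, Efnb3 had 4.55, 5.50, 5.39 and 5.17 in wild-type libraries 1 to 4 and 8.76, 5.0, 5.93 and 6.89 in libraries 5 to 8. The genotypes overlapped on this ratio, with library 5 the highest. Ephb1 per 100 normalized counts of the same list was 2.15 to 2.45 in wild type and 3.13 to 4.61 in the libraries labelled heterozygote, higher in each of the latter. Relative to the astrocyte list, Ephb1 had 2.17, 2.04, 2.49 and 2.47 in wild-type libraries 1 to 4 and 2.60, 2.35, 2.23 and 2.36 in libraries 5 to 8. This ratio was 2.29 ± 0.224 and 2.38 ± 0.156 (SD, n = 4 each), and the genotypes overlapped. Efnb3 relative to the astrocyte list was 5.16 ± 0.842 and 4.26 ± 0.644 (SD, n = 4 each), also with overlap. Both sums are weighted to their most abundant gene. In wild type Gfap averaged 12894.3 of 23005.9 normalized counts of the astrocyte sum, and Mobp 13992.5 of 22674.2 of the oligodendrocyte sum. Gfap had a log2 fold change of -0.99, beside -0.47 as the astrocyte list median and -0.71 for Ephb1. The astrocyte ratios thus mostly set a gene against Gfap. Per 100 counts of the neuron list, Efnb3 had 0.382 to 0.571 in wild type and 0.170 to 0.300 in the others. All Efnb3 ratios contain the values for which the gene was picked and are a description. The part of either glial type in the Efnb3 and Ephb1 differences was not tested.

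**Figure D4:**
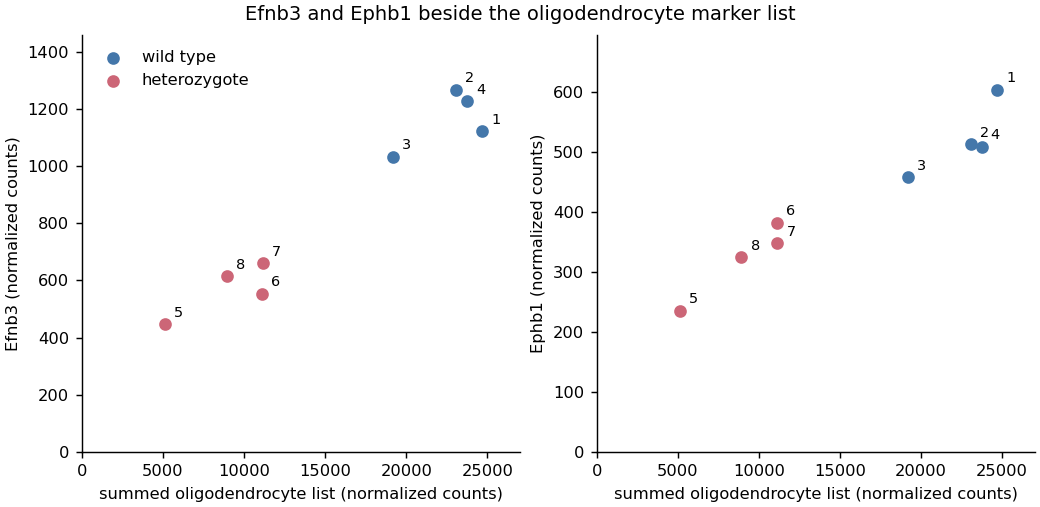
Normalized counts of Efnb3 (left) and Ephb1 (right) in each of the 8 numbered libraries (y axis) against the summed normalized counts of the oligodendrocyte marker list (x axis), both axes from 0. The libraries labelled heterozygote lie at 5111.3 to 11148.0 on the x axis and the wild-type libraries at 19188.7 to 24696.9, and library 5 is the lowest on both axes in both panels.

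Within genotypes, a comparison that does not use the difference between them, each gene was set against 14 marker lists after removal of the genotype means (126 pairs over 8 libraries, given as a description). Ephb1 was most like the astrocyte list (Pearson r 0.93, Spearman rho 0.83), the oligodendrocyte list (r 0.92, rho 0.88) and the macrophage list (r 0.87, rho 0.86). Without the 2 libraries farthest from the median of the list score the r was 0.63 for astrocytes, 0.95 for oligodendrocytes and 0.87 for macrophages. Efnb3 had r of 0.82 (rho 0.74) with the astrocyte list and 0.81 (rho 0.62) with the oligodendrocyte list, but 0.13 and 0.23 without such libraries, so its likeness rested on them. Library 5 was among those left out for both lists. The neuron list ran against Efnb3 (r -0.83, rho -0.67), and this too shrank, to -0.32. Ephb2 and Epha4 had r of -0.91 and -0.84 with the arterial endothelial list (rho -0.67 and -0.76). Without wild-type libraries 1 and 3 those were -0.23 and -0.26. Epha4 also had -0.86 with both the macrophage and the fibroblast list (rho -0.71 each), and -0.88 and -0.80 without the 2 farthest libraries. Efnb2 had -0.82 with macrophages (rho -0.76, then -0.77), and Ephb3 0.85 with hair cells (rho 0.88, then 0.91). These points share the depth and makeup of 8 libraries, of which wild-type library 1 stood apart.

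**Figure D5:**
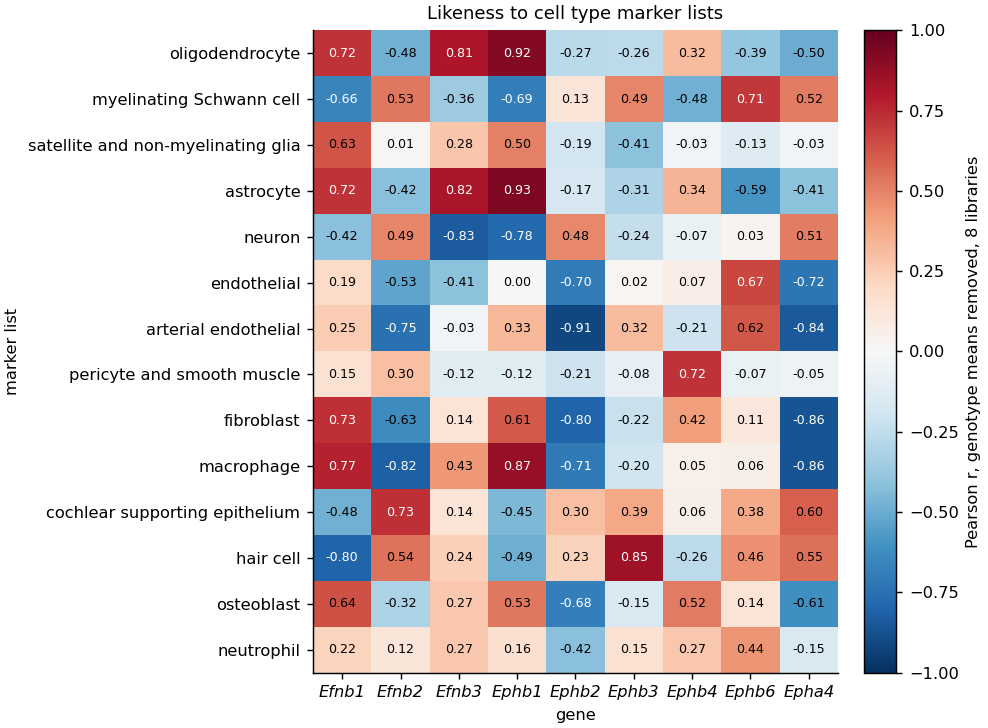
Pearson r (colour and printed value, -1 to 1) between each of the 9 genes (columns) and the mean log2 level of each of 14 cell type marker lists (rows), over 8 libraries with the genotype means removed. Ephb1 and Efnb3 have their highest values, 0.93 and 0.82, with the astrocyte list, and 0.92 and 0.81 with the oligodendrocyte list.

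Among the 9 genes themselves, the highest r with genotype means removed was 0.92, between Efnb2 and Epha4, followed by 0.84 for Efnb1 and Ephb1 and 0.82 for Ephb2 and Epha4. Efnb3 reached at most 0.64, with Ephb1. The genes most like each member on this measure, of 13356 with a mean of at least 50 normalized counts, were named by a rule. For Efnb3 they were Ptprz1 (r 0.997), which encodes a receptor tyrosine phosphatase of glial precursors, Tor3a (0.983) and Plagl2 (0.951). For Ephb1 they were Bloc1s5 (0.994), Taf9 (0.985) and Plet1 (0.983), and for Epha4 BC025920 (0.995), Lrrtm3 (0.992) and Zmym2 (0.991). The first for Efnb1 was Kl (0.986), for Efnb2 Golim4 (0.991), for Ephb2 2900026A02Rik (0.988), for Ephb3 Tmem234 (0.981), for Ephb4 Crot (0.959) and for Ephb6 Cd9 (0.984). All 9 members thus had a gene at 0.959 or above in this search over 8 libraries.

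The rest of the pathway was read from 6 lists with 57 genes, of which 56 were tested. Of these, 1 passed, from the list of other myelin growth inhibitors and their receptors. It was Mag, a glycoprotein of the inner myelin wrap, with 6619.5 ± 722.0 normalized counts in wild type and 3466.4 ± 454.2 otherwise (SD, n = 4 each), or -0.94 as log2 fold change (limma-trend adjusted p 0.0199). Omg, another myelin inhibitor, had -0.36 with an adjusted p of 0.259 in the same limma-trend fit. That list had 3 of 10 genes under an unadjusted p of 0.05, all lower and all without overlap, and its median was 0.07. Over all tested genes, 0.0807% passed, 7.34% were lower at that unadjusted threshold and 7.26% did not overlap. Mag was already known to be lower in these data when the list was made, and its call is not robust to single libraries. No gene of the whole table passed without library 2, 4 or 8.

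The ephrin-A ligands and the other EphA receptors did not pass in the limma-trend fit. None of 5 ephrin-A genes had an unadjusted limma-trend p under 0.05. Efna3 was scarce, at 6.38 ± 2.88 and 18.3 ± 8.93 normalized counts (SD, n = 4 each), and Efna1 had a log2 fold change of -0.28. Of 7 EphA receptors, Epha8 had an unadjusted limma-trend p of 0.0248 with a log2 fold change of 0.67 and an adjusted p of 0.306, and Epha10 had -0.42. Epha6 was not analysed here.

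Partners of forward signalling, such as exchange factors and adaptors, had 0 of 22 genes past limma-trend adjustment and 5 under an unadjusted p of 0.05, all higher. Over all tested genes 6.72% were higher at that threshold and 7.34% lower. Itsn1 and Tiam1, both exchange factors downstream of EphB receptors, had log2 fold changes of 0.38 and 0.43, neither with a limma-trend adjusted p below 0.278. Of 8 reverse signalling partners, 1 was under an unadjusted limma-trend p of 0.05 and 0 passed. This was Ptpn13, a phosphatase recruited to the ephrin-B tail, with 0.38 and an adjusted p of 0.266, and next came Rgs3, which binds the ephrin-B tail, with 0.19. Among the proteases that shed or cleave ephrins, Mmp9 had 1.29 with a limma-trend adjusted p of 0.330. Medians of these lists lay between 0.12 and 0.16.

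The MEF2 consensus site was searched for on both strands in the 250 bases before the start site of each gene, in RefSeq promoters on GRCm38.p6. The table matched 8 of the 9 genes, all but Efnb3. A match was found in 0 of those 8 and in 2.92% of 32851 promoters. A site this rare is seldom met among 8 promoters, so the search cannot set these genes apart from others.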

How the data were processed

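The authors' deposited table holds a signal value per gene and mouse: read counts divided by a size factor, to 1 decimal, as judged from the values. STAR, Partek, DESeq2 and the build mm10 are named, per the submitters' processing notes, without settings; the annotation and strand use are not given in the sources used here. Per the file headers, other deposited columns are the authors' p-value and FDR, a ratio, the same on the log2 scale, and a score for signed fold change, not used. The step that stands for 1 read was 0.78855 to 1.29777, and 88.5% to 91.7% of values under 1000 were whole multiples within 0.05, too few for a count test.

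Genes reaching 10 normalized counts in 4 or more libraries went into limma-trend (limma 3.58.1, R 4.3.3) on log2(value + 1), all 8 libraries, no covariates, Benjamini-Hochberg over all tested genes, threshold 0.05. The fit was also run on simulated data, with noise drawn independently for each gene and library. That run cannot show how the fit behaves where variation is shared between genes of a library. Transcript lengths were matched for 97.6% of genes. Other values came from Python 3.11.15 (numpy 2.4.6, pandas 2.3.3), and plots from matplotlib 3.10.9. Members and lists were chosen with earlier results of these data known. Named were all members, of each pathway list those that passed or else the 2 with the smallest p, and the 3 genes most like each member. One gene that this rule names is not reported here. 1 library stands for 1 mouse; no litter or sequencing batch is given. Alternatives were other pseudocounts, filters, scalings, covariates, a voom fit, a length correction and each library left out.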

Additional observations from a re-analysis of the deposited data

How the results depend on the processing

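The number of genes past the limma-trend threshold was 12 of 14870 and depended on the setting. It was 7 with quantile normalization, 30 with the transcript length correction and 576 with a covariate made from the residuals (their first principal component). Leaving out 1 library at a time gave 0 to 221 genes: 221 without library 3, 0 without library 2, 4 or 8, 7 without library 5 and 6 without library 7 (numbers 1 to 4 are wild type). Of the 8 members other than Efnb3, 0 passed in every alternative except that covariate, with 2 (Ephb1, limma-trend adjusted p 0.0328, and Epha4, 0.0424). That covariate came from the residuals of the genotype fit itself. By construction it shrank the residual spread and left the fold changes as they were. Its p values are therefore too small, and these 2 are not counted as calls. Over 19 alternatives the limma-trend adjusted p of Ephb1 ran from 0.0328 (with that covariate) to 0.531. The next lowest was 0.0568, without library 3. The log2 fold change of Ephb1 ran from -0.80 to -0.49, the weakest without the 2 libraries low in Xist. Efnb3 ran from -1.12 to -0.93. Ephb3, at 0.059, turned to -0.033 with the length correction, and the fits without 1 library ran from -0.028 (without library 3) to 0.156. Ephb6, at -0.011, ran from -0.084 (without library 2) to 0.065 (without library 6) in those fits. The other 7 members kept their direction. The cause was not tested. No member was below 3 reads in any library, so precision rests on 4 libraries a group. No paired analysis was made, because no litter or sequencing batch that could pair the libraries is given.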
